A study of Mus musculus with 74 samples.

Results

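The comparison described here is the difference between 2 numbered lines of RAW264.7, a mouse macrophage-like cell line, in how their RNA levels responded to 120 min of bacterial lipopolysaccharide (LPS). For each gene, the log2 response of line 264 (120 over 0 min) was subtracted from the log2 response of line 3205. A positive difference therefore means a larger increase or a smaller decrease in line 3205. All genes with a mean of at least 1 normalized read over 12 libraries were taken, 17450 of the 24851 genes of the deposited table. The 4 groups compared were line 264 without LPS, line 264 at 120 min, line 3205 without LPS and line 3205 at 120 min, each with 2 libraries. RAW264.7 cells headed as wild type in the table, at the same times, added 4 libraries to the fit, which used 12 of the 74 samples of the series. The series includes wild type, hypomorphic and CRISPR double knockout RAW264.7 lines for H3f3a and H3f3b, the genes for histone H3.3. The wild type cells are headed apart from lines 264 and 3205. Which of the other kinds each number stands for, and whether a line is 1 clone, is not stated in the labels. Titles of other samples in the series add H3.3, or altered forms of it, to the number 3205. The series gives S. typhosa LPS for its primary macrophages, and the source and dose of the LPS for the cell lines were not found in its labels. The tissue label of these libraries names bone marrow derived macrophages while their source is given as RAW264.7, and the latter is followed here. No label says that the libraries of a group came from separate cultures, so the p-values rest on the spread between libraries alone, which may be technical.

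Histone H3.3 is the H3 variant that is put into chromatin outside of DNA replication, and 2 genes, H3f3a and H3f3b, encode the same protein. It carries a serine that the replication-coupled H3 histones lack, and phosphorylation of that serine at genes switched on by a stimulus is the subject of the series. In macrophages, LPS is sensed by TLR4. Its adaptors activate NF-kB and MAP kinases within minutes, which turns on immediate early genes, cytokines and feedback inhibitors, and later an interferon loop. The comparison asks how far lines that differ in the RNA level of H3f3a differ in their response to LPS.

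The targeted genes were read first. H3f3a stood at 188 and 236 normalized reads in the 2 libraries of line 264 without LPS and at 182 and 212 at 120 min. In line 3205 it stood at 76.2 and 63.4 without LPS and at 53.5 and 37.5 at 120 min. Both lines were far below the wild type cells, at 2926 and 2055 without LPS, and every library of line 3205 was below every library of line 264. The gap between the lines was -1.59 ± 0.26 (log2, SE) at 0 min (limma adjusted p = 0.00468) and -2.10 ± 0.26 at 120 min (adjusted p = 0.000952). H3f3b rose with LPS in both lines. It went from 5642 and 7145 normalized reads to 17764 and 15991 in line 264 and from 7177 and 7437 to 11416 and 13284 in line 3205. Wild type cells had 15367 and 13623 without LPS and 34155 and 33056 at 120 min. Without LPS the H3f3b levels of the lines differed by 0.20 ± 0.15 (log2, SE), a gap not far above its SE. Both libraries of line 3205 were above both of line 264 at that time. The H3f3b response was 2.65-fold in line 264 and 1.69-fold in line 3205, a difference of -0.66 ± 0.21 on the log2 scale (limma adjusted p = 1), and the responses of the lines, taken as each library at 120 min over each library at 0 min of the line, did not overlap. H3f3a differed in its response by -0.52 ± 0.37 (limma adjusted p = 1). It was lower in line 3205 within both replicate numbers (-0.45 and -0.58), while the responses overlapped across all pairings of libraries. RNA levels of this kind count transcripts of an edited gene as well, so they do not show whether a line makes the protein.

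Across the table, no gene passed the test of the difference. The limma fit gave an adjusted p of 1 for every one of the 17450 genes, so 0 genes (0%) were called in either direction. Without adjustment, 282 genes (1.62%) passed the limma threshold of 0.05, 162 of them higher in line 3205 (0.928%) and 120 lower (0.688%). With no true differences a share of about 0.05 would pass on average, so fewer genes passed than that. This fit had no replicate block, so differences between replicate numbers counted towards its spread. The SEs and intervals given for single genes come from this fit. With the replicate number as a block the unadjusted count was 584, and the called count stayed at 0. The edgeR quasi-likelihood test on recovered reads called 0 genes (254 without adjustment), and DESeq2 called 1 gene, Jag1 (219 without adjustment). A difference of at least 1 log2 unit was seen for 811 genes higher in line 3205 (4.65%) and 823 lower (4.72%), and 1405 of these 1634 genes had no group mean of 50 normalized reads.

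Most genes called for a response to LPS in one line were called in the other. LPS raised 503 genes in line 264 (2.88% of those tested) and 505 in line 3205 (2.89%), and 381 genes were among both, 75.7% of the first list and 75.4% of the second. It lowered 445 genes in line 264 (2.55%) and 373 in line 3205 (2.14%), with 280 in both, 62.9% and 75.1% of the lists. No gene was called in opposite directions. The 2 responses share no library, but their tests used the same estimate of spread for each gene, which can by itself raise the overlap of calls. Over the 11663 genes with a group mean of at least 50 normalized reads, the responses had a correlation across genes of 0.90 and a slope of 0.88 for line 3205 on line 264, as a description, since genes are not independent. The lines themselves were apart, with 1437 genes (8.23%) called between them at 0 min and 1570 (9%) at 120 min.

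**Figure D1:**
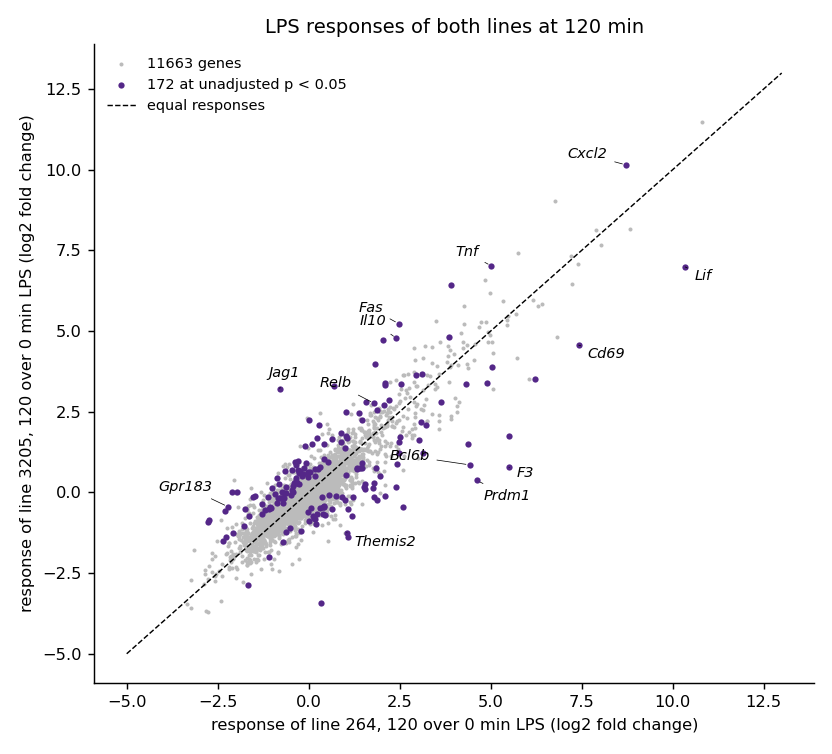
Log2 response to 120 min of LPS in line 264 (x axis) and line 3205 (y axis) for the 11663 genes with a group mean of at least 50 normalized reads, 1 point per gene. The 172 purple points passed the limma threshold of 0.05 for the difference without adjustment, and the points follow the dashed line of equal responses, with Jag1, Tnf and Fas above it and Lif, Cd69 and Prdm1 below.

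How closely a difference was bounded, before any adjustment, depended on the level of the gene. These intervals do not give the size of a difference that would have been called, since a call had to pass adjustment over all genes. Among the 8762 genes with a group mean of at least 500 normalized reads, the median 95% interval reached 0.58 log2 units to each side, and for 77.9% of them the whole interval lay within 1 log2 unit of zero. Among the 5787 genes under 50 normalized reads it reached 2.25, and no interval lay within 1 unit. In all, 7513 genes had a difference bounded within a factor of 2 in either direction. The differences from replicate 1 libraries alone and from replicate 2 libraries alone correlated at 0.40 across the genes of at least 500 normalized reads and at 0.05 across those under 50. Libraries held between 26456023 and 51041425 reads on genes. The deepest were those of line 3205 at 120 min, at 51041425 and 50232554 reads, against 36004724 and 29454942 for line 264 at that time.

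The cells were checked against the label of macrophage-like cells. All 10 fixed macrophage markers were above 10 normalized reads in at least 1 group, among them Cd68, Csf1r and Itgam. Their summed level ran from 132128 to 185433 in line 264 without LPS, from 209745 to 217357 in line 264 at 120 min, from 195114 to 213706 in line 3205 without LPS and from 230436 to 285399 in line 3205 at 120 min. Of the B cell, T and NK cell and neutrophil markers, 1 each reached 10 normalized reads in a group (Cd79b, Lck and S100a8), and none of the fibroblast and epithelial markers did. The B cell markers summed to at most 6.11 normalized reads in a library of line 264 and to between 22.2 and 152 in line 3205, and their part in the results was not tested. Among osteoclast markers, which RAW264.7 cells can express, 4 of 5 in the table reached 10 normalized reads, and among dendritic cell markers 3 of 6. In bulk RNA, fewer cells expressing a gene and less RNA per cell cannot be told apart.

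Genes of the NF-kB pathway, which carry the LPS signal and also shut it off, had a larger response in line 3205 more often than a smaller one. Of 36 members, all above 50 normalized reads, 26 had a positive and 10 a negative difference, with a median of 0.14 log2 units against 0.00 over all genes. The median was 0.11 from replicate 1 alone and 0.11 from replicate 2 alone, and between 0.08 and 0.26 when each library was left out. None passed the test. Without adjustment 5 passed, all with the larger response in line 3205 (0.928% of all genes were on that side), namely Relb, Nfkbia, Tank, Tnip3 and Nfkb2. The count depends on which genes were listed: Malt1, a gene of NF-kB signalling described below, was outside the list and had a difference of -1.43. The members started lower in line 3205: their median gap between the lines was -0.26 at 0 min and -0.18 at 120 min.

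Relb encodes an NF-kB subunit of the alternative pathway. It stood at 1047 and 785 normalized reads in line 264 without LPS and 3329.6 and 2992 at 120 min. In line 3205 it went from 349 and 293 to 2295 and 2063. Line 3205 was lower in both libraries at both times, and the gap was -1.5 ± 0.16 (log2, SE) at 0 min and -0.54 ± 0.16 at 120 min. The response difference was 0.96 ± 0.23 (95% interval 0.45 to 1.48, limma adjusted p = 1), and the responses of the lines did not overlap. Nfkb2, the partner precursor of Relb, had a difference of 0.65 ± 0.29, but its responses overlapped.

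Nfkbia encodes IkB alpha, the inhibitor that NF-kB itself induces. Its levels went from 3399 and 3507 to 26996 and 26389.9 normalized reads in line 264 and from 1650.4 and 2105 to 24723 and 21906 in line 3205. LPS raised it 7.73-fold in line 264 and 12.5-fold in line 3205. The gap between the lines was -0.89 ± 0.13 (adjusted p = 0.00309) before LPS and -0.20 ± 0.13 at 120 min, which did not pass the test. The difference was 0.69 ± 0.19 (limma adjusted p = 1). Tnip3, an A20-binding protein, went from 2361 and 2209 to 10228 and 9302 in line 264 and from 1042 and 565 to 11946 and 5351 in line 3205, where the 2 libraries of each time lay far apart. Tank, an adaptor of TBK1 and the IKK-related kinases, had the smallest of these differences, 0.40 ± 0.16.

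Other feedback genes of the pathway had close fold responses. Tnfaip3, which encodes A20, rose 20.4-fold in line 264 and 23.8-fold in line 3205, with a difference of 0.22 ± 0.28 (95% interval -0.41 to 0.85). Nfkbiz, which encodes the nuclear cofactor IkB zeta, rose 44.4-fold and 44.7-fold, with a difference of 0.01 ± 0.29 (95% interval -0.64 to 0.67). Chuk, which encodes the IKK alpha kinase, stood at 4549 and 4534 normalized reads in line 264 against 2561 and 2980.4 in line 3205 without LPS. The lower level in line 3205 was called at both times, with gaps of -0.72 ± 0.11 (adjusted p = 0.00375) and -0.76 ± 0.11 (adjusted p = 0.00255), while its response differed by -0.05 ± 0.16 (95% interval -0.41 to 0.31).

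Among 22 cytokine genes the responses were large in both lines, with a median of 4.53 log2 units in line 264 and 3.97 in line 3205. The median difference was -0.12, and it took either sign, from -0.61 to 0.35, as single libraries were left out. It was positive without line 264 at 120 min replicate 1 (0.35), line 264 at 0 min replicate 2 (0.23), line 3205 at 0 min replicate 1 (0.29) or line 3205 at 120 min replicate 2 (0.30). Without adjustment 2 cytokine genes were higher in line 3205 (Tnf and Il10) and 1 lower (Lif), where 0.928% of all genes were higher and 0.688% lower, and none passed after adjustment.

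Tnf encodes the cytokine that drives much of the early inflammatory response. Without LPS it stood at 1614 and 2711 normalized reads in line 264 against 333 and 747 in line 3205. At 60 min the libraries held 94132 and 103585 in line 264 against 51154 and 79145 in line 3205. At 120 min they held 91324 and 50509 in line 264 against 68394 and 61581 in line 3205. The lines were thus apart before LPS and overlapped at 120 min: the gap was -2.07 ± 0.40 (adjusted p = 0.0118) at 0 min and -0.07 ± 0.40 at 120 min. Tnf rose 32.5-fold in line 264 and 129.8-fold in line 3205. The response difference of 2.0 ± 0.57 (95% interval 0.72 to 3.28, limma adjusted p = 1) was of the same size in replicate 1 (1.86) and replicate 2 (2.14).

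Lif, which encodes leukemia inhibitory factor, an IL-6 family cytokine, went the other way. It climbed from 18.2 and 13.7 normalized reads to 24386 and 19668 in line 264 and from 5.14 and 5.98 to 2707 and 254 in line 3205. The 2 libraries of line 3205 at 120 min were far apart, and both were below line 264. The gap at 120 min was -4.72 ± 0.94 (adjusted p = 0.0122) and the response difference -3.36 ± 1.32. That value was -1.66 without the lower of those libraries, replicate 2, and -5.06 without replicate 1.

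Il10, an anti-inflammatory cytokine gene, was barely read in line 264. Its libraries held 0 and 0 normalized reads without LPS and 1.96 and 8.56 at 120 min, against 6.85 and 11.96 without LPS and 257 and 294 at 120 min in line 3205. Since line 264 had 0 reads without LPS, no fold is given for its response, and the sign of the response difference depended on how zeros were handled: it was 2.36 by limma and -0.47 by edgeR. At 120 min the level in line 3205 was above that in line 264 by 5.70 ± 0.55 (adjusted p = 0.000199).

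For the other cytokine genes of the fixed panel the 95% interval of the difference held zero. Il1b stood at 16696 and 2466 normalized reads in line 264 against 35885 and 5180.4 in line 3205 at 120 min, and its response difference was 0.22 ± 1.86 (95% interval -3.94 to 4.38). Within each replicate number Il1b was higher in line 3205 at 120 min, and the response difference was -0.39 in replicate 1 and 0.83 in replicate 2. Ifnb1, the interferon beta gene, stood at 3061 and 131 in line 264 against 2265 and 1403 in line 3205 at that time, with replicate 2 of line 264 far below the other 3 libraries. Its difference of 2.27 ± 1.63 was -0.14 in replicate 1 and 4.68 in replicate 2. Il1a, Il6 and Csf3 had no more than 5 reads in at least 1 group without LPS, and their differences of -0.35, -1.56 and 0.66 rest on those few reads. Il23a, a subunit of IL-23, had at 120 min 619 and 144 normalized reads in line 264 against 157 and 44.4 in line 3205, and a difference of -2.56 ± 1.35 (-2.69 and -2.44 in the replicates). The responses overlapped between the lines when libraries were paired across replicate numbers. With the replicate number as a block, limma gave Il23a an unadjusted p of 0.000273 in place of 0.0886 and an adjusted p of 0.367.

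Chemokine genes, whose products draw leukocytes, had equal median responses of 4.42 and 4.44 log2 units over 19 members, and a median difference of 0.03. The median was 0.28 in replicate 1 and 0.52 in replicate 2. It moved to 0.34 without replicate 1 of line 264 at 120 min and to 0.54 without replicate 2 of line 3205 at 120 min, and fell to -0.05 without replicate 2 of line 264 at 120 min. Of these genes, 1 was higher in line 3205 without adjustment and 2 lower (0.928% of all genes were higher and 0.688% lower). Cxcl2, a neutrophil attractant, stood at 101 and 262 normalized reads in line 264 against 65.1 and 57.4 in line 3205 without LPS. At 120 min the levels met, at 74499.8 and 63856 in line 264 against 68025 and 73408 in line 3205, so that its difference of 1.43 ± 0.59 came with a gap of -1.40 ± 0.42 before LPS. The other 2, Cx3cl1 and Ccl17, had 2 reads each in line 264 without LPS, and 3 and 4 in line 3205, so no folds are given. Ccl17 stood at 291 and 18.3 normalized reads in line 264 against 16.8 and 4.86 in line 3205 at 120 min, and Cx3cl1 at 40.3 and 7.34 in line 264 against 6.45 and 0 in line 3205. In both genes replicate 1 of line 264 was the highest library at that time. Ccl7, a monocyte attractant with 0 reads in line 264 and 1 in line 3205 without LPS, stood higher in line 3205 at 120 min, at 188 and 106 against 36.3 and 20.8 (adjusted p = 0.0307 for the gap). Cxcl10 and Ccl4 rose in both lines and Ccl5 passed the test in neither, and their response differences were -0.65 ± 0.94, 0.58 ± 0.88 and -1.57 ± 1.45.

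**Figure D2:**
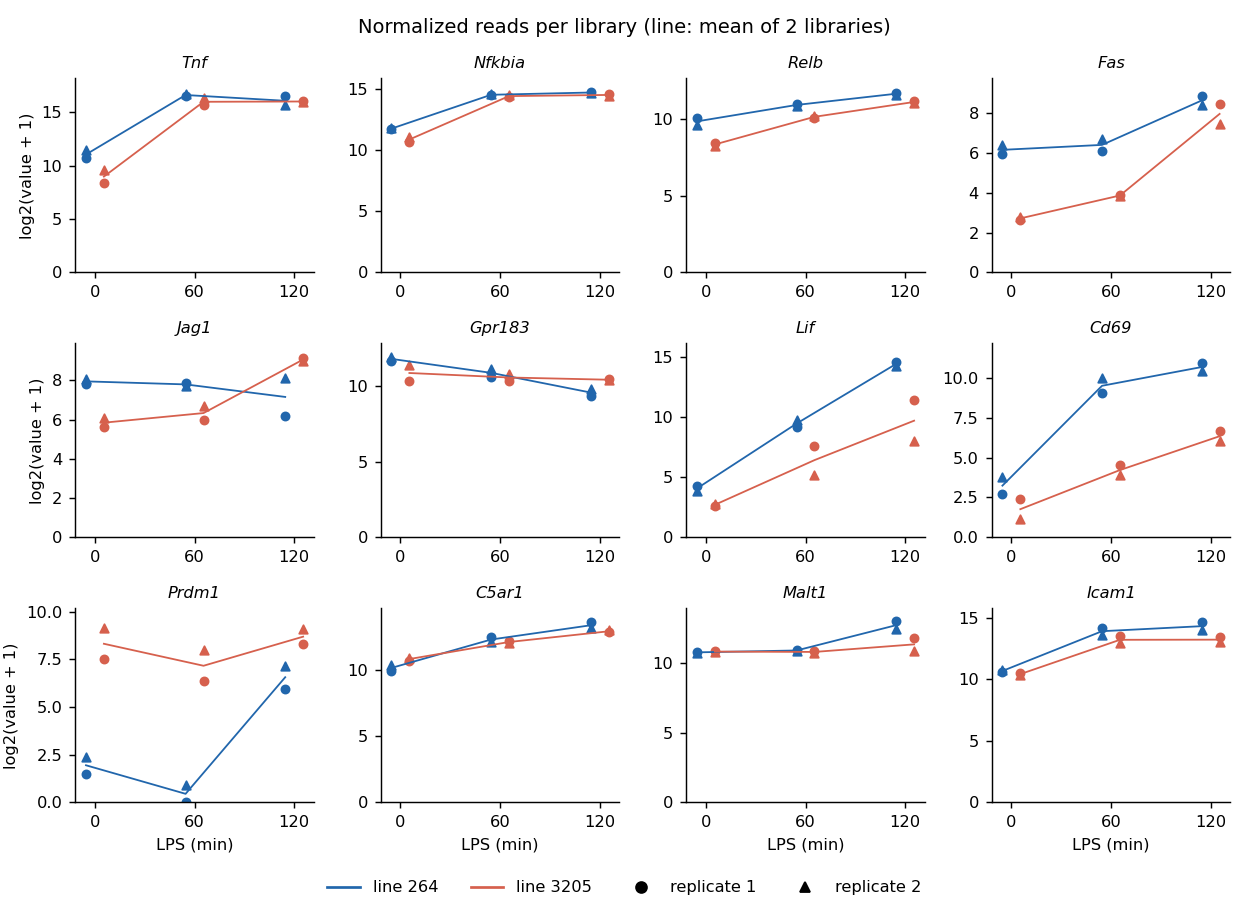
Normalized reads of 12 genes on a log2(value + 1) axis at 0, 60 and 120 min of LPS in line 264 (blue) and line 3205 (red), with 1 marker per library (circle for replicate 1, triangle for replicate 2) and a line through the mean of the 2 libraries. Tnf, Nfkbia, Relb and Fas start lower in line 3205 and come close to line 264 by 120 min, Jag1 crosses over, and Lif and Cd69 end lower in line 3205. The 60 min values were deposited apart from the others, and a shared scale was not tested.

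Immediate early genes are switched on without new protein synthesis, and many encode transcription factors. Over 38 tested members the responses had medians of 2.24 and 2.15 log2 units, and the median difference was 0.19, with -0.04 in replicate 1 and 0.25 in replicate 2. It was negative without replicate 2 of line 3205 at 0 min (-0.15). Without adjustment 2 members were higher in line 3205 and 3 lower (0.928% of all genes were higher and 0.688% lower). Ier2, a nuclear immediate early protein, went from 721 and 1083 normalized reads to 4607 and 5384 in line 264 and from 702 and 811 to 2266 and 2221 in line 3205. At 60 min both lines stood together, at 15281 and 19135 in line 264 against 16395 and 15901 in line 3205, and at 120 min line 3205 was lower, with a gap of -1.15 ± 0.20 (adjusted p = 0.00633). The response difference was -0.92 ± 0.28.

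Gadd45b, a stress-induced gene, started higher in line 3205, at 288 and 309.6 normalized reads against 93.7 and 119.7. At 120 min the lines overlapped, with 3954 and 5075 against 2794 and 4373, and the difference was -1.13 ± 0.42. Klf6, a zinc finger transcription factor, started lower in line 3205, at 1543 and 2158 against 5604 and 5716, and stood at 3991 and 6623 against 5868 and 9814 at 120 min. Its difference was 1.07 ± 0.43. Egr3, an early growth response factor, had a difference of 2.16 ± 0.83, but it was 0.93 in replicate 1 and 3.38 in replicate 2, where line 3205 had 7.17 normalized reads without LPS. Nr4a3, an orphan nuclear receptor, reached 1052 and 522 in line 264 against 45.2 and 18.7 in line 3205, a difference of -2.70 ± 1.19 with responses that overlapped.

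Egr1, an early growth response factor, had a large gap in level and close fold responses. It stood at 666 and 948 normalized reads in line 264 against 4.28 and 3.59 in line 3205 without LPS. It reached 26795 and 32799 against 281 and 174 at 60 min and 8023 and 4858 against 36.8 and 27.8 at 120 min. The gap between the lines was -7.34 ± 0.31 (adjusted p = 1.65e-06) at 0 min and -7.57 ± 0.31 (adjusted p = 1.22e-06) at 120 min, but the fold responses, 7.85 and 6.70, differed by -0.23 ± 0.44 on the log2 scale. The Egr1 value in line 3205 without LPS rests on 8 reads in all. Fos, a subunit of AP-1 whose levels at 120 min were 443 and 291 in line 264 against 605 and 677 in line 3205, differed by -0.68 ± 0.61. Dusp1, a phosphatase that ends MAP kinase signalling, was higher in line 3205 at both times, by 1.98 ± 0.21 (adjusted p = 0.000401) and 1.88 ± 0.21 (adjusted p = 0.000546), with a response difference of -0.10 ± 0.30. Jun and Fosb differed by 0.20 ± 1.02 and 0.33 ± 1.97, with replicates too far apart to bound either.

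Of 12 regulators of inflammatory mRNA decay, 8 had a positive and 4 a negative difference (median 0.10), and 1 was higher without adjustment (0.928% of all genes). Zc3h12c, a member of the regnase family of RNases, stood at 4489 and 4456 normalized reads in line 264 against 6832 and 7450.5 in line 3205 at 120 min, from overlapping levels without LPS. Its difference was 0.85 ± 0.34. Zfp36, which encodes tristetraprolin, a protein that destabilizes Tnf mRNA, rose 9.995-fold and 12.2-fold and differed by 0.28 ± 0.45.

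Genes of the later response and of effector function had a median difference of 0.00 over 37 members, with 0 higher and 4 lower without adjustment (0.688% of all genes were on that side). The median was -0.44 in replicate 1 and 0.13 in replicate 2, -0.19 over the 31 members of at least 50 normalized reads, and between -0.55 (without replicate 2 of line 3205 at 0 min) and 0.31 (without replicate 1 of the same group) when single libraries were left out. The 4 were Mmp9, F3, Icam1 and Saa3. Mmp9, a matrix protease, went from 112 and 102 normalized reads to 1058 and 734 in line 264 and from 236 and 285 to 832 and 772 in line 3205. Line 3205 started higher, and the lines overlapped at 120 min. Its difference of -1.41 ± 0.40 (95% interval -2.30 to -0.52) was -1.42 and -1.40 in the replicates. Icam1, an adhesion molecule for leukocyte integrins, went from 1537 and 1776 to 25584 and 16717 in line 264 and from 1463 and 1313 to 11225 and 8332 in line 3205, so that line 3205 ended lower in both libraries. The difference was -0.84 ± 0.32, and the gap at 120 min was called, -1.1 ± 0.23 (adjusted p = 0.0142).

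F3, the tissue factor gene, was scarcely read in line 3205. It reached 359 and 106 normalized reads in line 264 at 120 min, while line 3205 had 0 reads without LPS and 3 at 120 min over both libraries. No fold is given for line 3205, which was at or under the floor of 3 reads per group at both times. The gap at 120 min was called by limma (adjusted p = 0.0065). Saa3, an acute phase protein gene, ended alike in both lines, at 1219.5 and 997 in line 264 against 1291 and 903 in line 3205, and differed by -1.5 ± 0.58. Ptgs2, which encodes the prostaglandin enzyme COX-2, was higher in line 3205 at both times, at 175621 and 100507 normalized reads against 33388 and 14773 at 120 min, and its response differed by 0.05 ± 0.58 (95% interval -1.26 to 1.35). Irg1, which encodes the itaconate enzyme, differed by 0.13 ± 0.66, and Socs3, a feedback inhibitor of cytokine receptors, by 0.27 ± 0.47. Nos2, the inducible nitric oxide synthase gene, differed by 1.5 ± 2.11, with an interval of -3.22 to 6.23, and Irf1 by -0.53 ± 0.92.

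The interferon-stimulated genes had the lowest median of the lists with at least 10 tested members, and a wide spread between replicates. Of 48 members 46 had a negative difference, with a median of -0.39 log2 units (-0.38 in replicate 1 and -0.31 in replicate 2), but none passed the threshold even without adjustment. Their responses were small at 120 min, with medians of 0.26 in line 264 and -0.09 in line 3205. In each of the 4 groups the replicate 1 library was above the replicate 2 library. Relative to each gene's mean over the 8 libraries, the median member stood at 0.15 and -0.52 in line 264 without LPS and at 0.96 and -0.49 at 120 min. In line 3205 it stood at 0.28 and -0.17 without LPS and at 0.55 and -0.53 at 120 min. At 120 min the replicates of each line were farther apart than the median difference between the lines. The median moved from -0.39 to 0.27 without replicate 1 of line 264 at 120 min and to 0.07 without replicate 2 of line 3205 at 120 min, and to -1.28 without replicate 2 of line 264 at 120 min. Each omission also unbalanced the replicate numbers, in a fit without the replicate block, so these shifts include the split between them. A cause of the split between the replicate numbers was not tested.

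Ifit1, an antiviral effector, is an example of this spread. It held 11277 and 788 normalized reads in line 264 against 1835 and 345 in line 3205 at 120 min, and its difference was -1.93 ± 1.62 (95% interval -5.55 to 1.68). Ifih1, the gene for the RNA sensor MDA5, had the smallest p of the list. It went from 1918 and 1062 to 15935 and 4652 in line 264 and from 1825 and 1206 to 4054 and 1451 in line 3205, and both replicates gave a lower response in line 3205 (-1.9 and -1.86). Gbp3, a guanylate-binding protein gene, and Iigp1, an immunity-related GTPase gene, differed by -1.13 ± 0.89 and -1.28 ± 0.94. Socs1, an inhibitor of interferon signalling from the list of JAK-STAT genes, reached 451 and 205 in line 264 against 202 and 112 in line 3205 and differed by -1.38 ± 0.64.

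**Figure D3:**
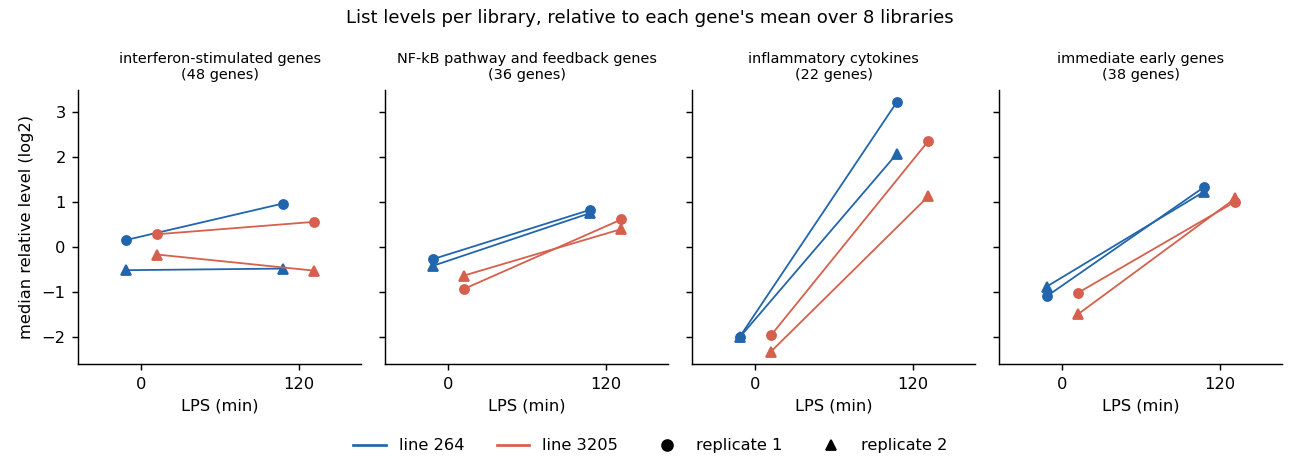
Level of 4 gene lists in each of the 8 libraries at 0 and 120 min of LPS, as the median over members of log2(value + 1) minus the gene's mean over the libraries, for line 264 (blue) and line 3205 (red), with circles for replicate 1 and triangles for replicate 2. For the interferon-stimulated genes the circles lie above the triangles in every group, while the immediate early and NF-kB genes rise in all 4 pairs of libraries.

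Among surface molecules, 23 leukocyte surface and adhesion genes had a median difference of 0.09, and 3 were lower in line 3205 without adjustment (0.688% of all genes were on that side): Cd69, Icam1 and Cd83. Cd69, an early activation antigen, went from 5.46 and 12.8 normalized reads to 1959.9 and 1337 in line 264. In line 3205 it went from 4.28 and 1.2 to 98.1 and 64.6, below line 264 in every library at 120 min. The gap at 120 min was -4.33 ± 0.63 (adjusted p = 0.00239) and the response difference -2.86 ± 0.89 (95% interval -4.86 to -0.85), but line 3205 had only 6 reads without LPS. Cd83, a maturation marker, started higher in line 3205, at 3552 and 2605 against 2158 and 1321, and overlapped at 120 min. Its difference was -0.90 ± 0.39, and the responses overlapped.

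Receptors for lipids, nucleotides and chemoattractants had differences of both signs. Over 31 members the median was -0.12, with 2 higher and 3 lower without adjustment (0.928% of all genes were higher and 0.688% lower). Gpr183, a receptor for oxysterols that guides immune cells, fell in line 264, from 3159.7 and 3841 normalized reads to 641 and 873, by 2.22 log2 units (adjusted p = 0.00289). In line 3205 it stood at 1289 and 2593 without LPS and 1363 and 1328 at 120 min, a response of -0.44 ± 0.31 that did not pass the test. The difference was 1.77 ± 0.44 (limma adjusted p = 1). S1pr1, a sphingosine-1-phosphate receptor that governs lymphocyte exit from tissue, fell from 117 and 84.7 to 7.86 and 24.5 in line 264. In line 3205 it was far more abundant, at 6644 and 6361 without LPS and 3463 and 3803 at 120 min, a gap of 6.01 ± 0.41 at 0 min (adjusted p = 1.81e-05). Its response difference was 1.9 ± 0.58.

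C5ar1, the receptor of complement C5a, rose in both lines, from 984 and 1361 to 12744 and 9241 normalized reads in line 264 and from 1705 and 1994 to 7496 and 8357 in line 3205. Line 3205 started higher and ended lower in both libraries, a difference of -1.13 ± 0.30 (95% interval -1.79 to -0.46, limma adjusted p = 1). Ptafr, the receptor of platelet-activating factor, rose from 207 and 352 to 1414 and 1588 and from 706 and 894 to 1751 and 2004, so that line 3205 was higher throughout and had the smaller fold response. Its difference was -1.23 ± 0.35.

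Among 29 genes of TNF and death receptor signalling the median difference was 0.03, with 2 higher and 0 lower without adjustment (0.928% of all genes were higher and 0.688% lower). Fas encodes a death receptor. It had 59.2 and 82.1 normalized reads in line 264 against 5.14 and 5.98 in line 3205 without LPS, and 67.4 and 102 in line 264 against 13.9 and 13.1 in line 3205 at 60 min. By 120 min Fas had reached 457 and 335 in line 264 against 345 and 174 in line 3205, so that the lines came to overlap. LPS raised Fas 5.55-fold in line 264 and 37.6-fold in line 3205, a difference of 2.76 ± 0.68 (95% interval 1.24 to 4.29, limma adjusted p = 1), with 2.89 and 2.63 in the 2 replicates. The line 3205 value without LPS rests on 11 reads. Tnfrsf11a, which encodes RANK, the receptor of the osteoclast factor RANKL, stood at 1799 and 1319 in line 264 against 5198 and 3547 in line 3205 at 120 min. It differed by 0.99 ± 0.28, and the gap between the lines was called at 120 min (1.48 ± 0.20, adjusted p = 0.00142).

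Genes of the p53 list had a median of 0.03 over 25 members, with 2 higher (Fas and Plk2) and 0 lower without adjustment (0.928% of all genes were higher and 0.688% lower). Plk2, a polo-like kinase, was at 1.82 and 3.42 normalized reads in line 264 against 35.1 and 224 in line 3205 without LPS, and at 9.82 and 18.3 in line 264 against 1624 and 3522 in line 3205 at 120 min. Line 3205 was higher throughout, by 7.37 ± 0.72 at 120 min (adjusted p = 0.000212), and its difference was 2.70 ± 1.02. That value was 1.38 without replicate 1 of line 3205 at 0 min and 4.02 without replicate 2. Bbc3, which encodes the pro-apoptotic protein PUMA, leaned the other way, at 3182 and 1115 in line 264 against 608 and 537 in line 3205 at 120 min, with a difference of -1.17 ± 0.60. It was -0.42 without replicate 1 of line 264 at 120 min, the highest library, and -1.93 without replicate 2.

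Genes that place H3.3 into chromatin, or write and read the H3K36 methylation that the series also profiled, did not stand out. Of the 14 H3.3 genes and chaperones, 5 had a positive and 9 a negative difference (median -0.02, which was 0.03 with TMM scaling), H3f3b alone passed without adjustment, on the lower side (0.688% of all genes), and 9 intervals lay within 1 log2 unit. Of 22 H3K36 genes, 11 were positive and 11 negative (median 0.00), and 16 intervals lay within 1 unit. Setd2, the enzyme that trimethylates H3K36, stood between 3203 and 4432 normalized reads over the 8 libraries and differed by -0.02 ± 0.18 (95% interval -0.42 to 0.37). Zmynd11, a reader of trimethylated H3.3, stood between 2479 and 3120.0 and differed by 0.15 ± 0.16 (95% interval -0.21 to 0.51). The kinases of the MAP kinase and histone kinase list had a median of 0.04 over 25 members, with 20 intervals within 1 unit and 0 members passing without adjustment.

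Lists of housekeeping and metabolic genes were close to zero, and medians of this size were not stable: over all 36 lists, 26 medians changed sign when 1 of the 8 libraries was left out. Those fits had no replicate block, so each omission also left the replicate numbers unbalanced between the groups. A shift can therefore hold the difference between replicate numbers as well as the weight of the library. The medians were 0.09 for 40 cell cycle and replication genes, -0.07 for 28 unfolded protein and integrated stress genes, 0.11 for 30 sterol and fatty acid synthesis genes, -0.07 for 28 glycolysis and hypoxia genes, 0.02 for 34 lysosomal genes and -0.03 for 34 oxidative phosphorylation genes. None of these had a member that passed without adjustment. The members nearest to it included E2f2, a cell cycle transcription factor that fell in both lines, from 1648 and 1410.0 normalized reads to 446 and 483 in line 264 and from 1138 and 1167 to 460.0 and 578 in line 3205, with a difference of 0.56 ± 0.25. Xbp1, a transcription factor of the unfolded protein response, stood at 11063 and 8593 in line 264 against 6281 and 6641 in line 3205 at 120 min and differed by -0.49 ± 0.22. Ppp1r15a, which encodes the phosphatase subunit GADD34, rose in both lines, to 9812 and 4449.9 and to 2866 and 4228, and differed by -0.93 ± 0.50 with overlapping responses.

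Cytosolic ribosomal protein genes had a median of -0.09 over 53 members, 43 negative and 10 positive, and 50 of their intervals lay within 1 unit. The KRAB zinc finger genes had a median of -0.01 over 27 members and the MHC and presentation genes -0.02 over 22. TMM scaling moved the median of all genes to 0.05, a shift of the size of several of these medians.

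Toll-like receptors and their adaptors, which start the LPS signal, had a median of -0.14 over 25 members, with 9 positive, 16 negative and none passing without adjustment. Tlr4, the LPS receptor, was more abundant in line 3205. It stood at 1938 and 1968 normalized reads in line 264 against 4705 and 4814 in line 3205 without LPS, and at 989 and 1138 in line 264 against 3605 and 3237 in line 3205 at 120 min. The gaps of 1.28 ± 0.14 (adjusted p = 0.000487) and 1.69 ± 0.14 (adjusted p = 7.85e-05) were called, and the response difference was 0.40 ± 0.20 (95% interval -0.05 to 0.85). Tlr8, a sensor of RNA, was listed with 4 and 1 reads in line 264 and with 175 and 275 normalized reads without LPS and 22.6 and 68.7 at 120 min in line 3205. Map2k1, which encodes the kinase MEK1, was lower in line 3205 at both times, with 4819 and 4074 against 21296 and 20452 normalized reads without LPS, and its response differed by 0.27 ± 0.23 (95% interval -0.24 to 0.78).

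The 24 macrophage marker genes tested had a median of -0.20, with 7 positive and 17 negative. C1qb, a complement component, was the 1 member that passed without adjustment, on the lower side (0.688% of all genes). It had 0 reads in line 264 without LPS and 4.91 and 3.67 normalized reads at 120 min, against 1162 and 2407 without LPS and 1370.3 and 2576 at 120 min in line 3205, so the lines were far apart at both times and no fold is given for line 264. Cebpa, a myeloid transcription factor, stood higher in line 3205 without LPS, at 1339.7 and 925 against 435 and 431, and overlapped at 120 min, with a difference of -1.0 ± 0.46. Replication-coupled histone genes had a median of 0.73 over 29 members, but only 2 reached 50 normalized reads in any group, and the median was -0.03 in replicate 1 and 1.19 in replicate 2.

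The authors' deposited table of primary macrophages lists 193 genes, 187 of them with a positive log2 fold change after 60 min of LPS. Of the 178 of these that were tested here, the authors' deposited table being used only to choose them, the responses at 120 min had medians of 2.15 log2 units in line 264 and 2.22 in line 3205. Their median difference was 0.06, with 101 positive and 76 negative, 14 higher and 12 lower without adjustment (0.928% of all genes were higher and 0.688% lower), and 0 called. Differences of 1 log2 unit or more were seen for 25 (4.65% of all genes) and of -1 or less for 16 (4.72%).

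**Figure D4:**
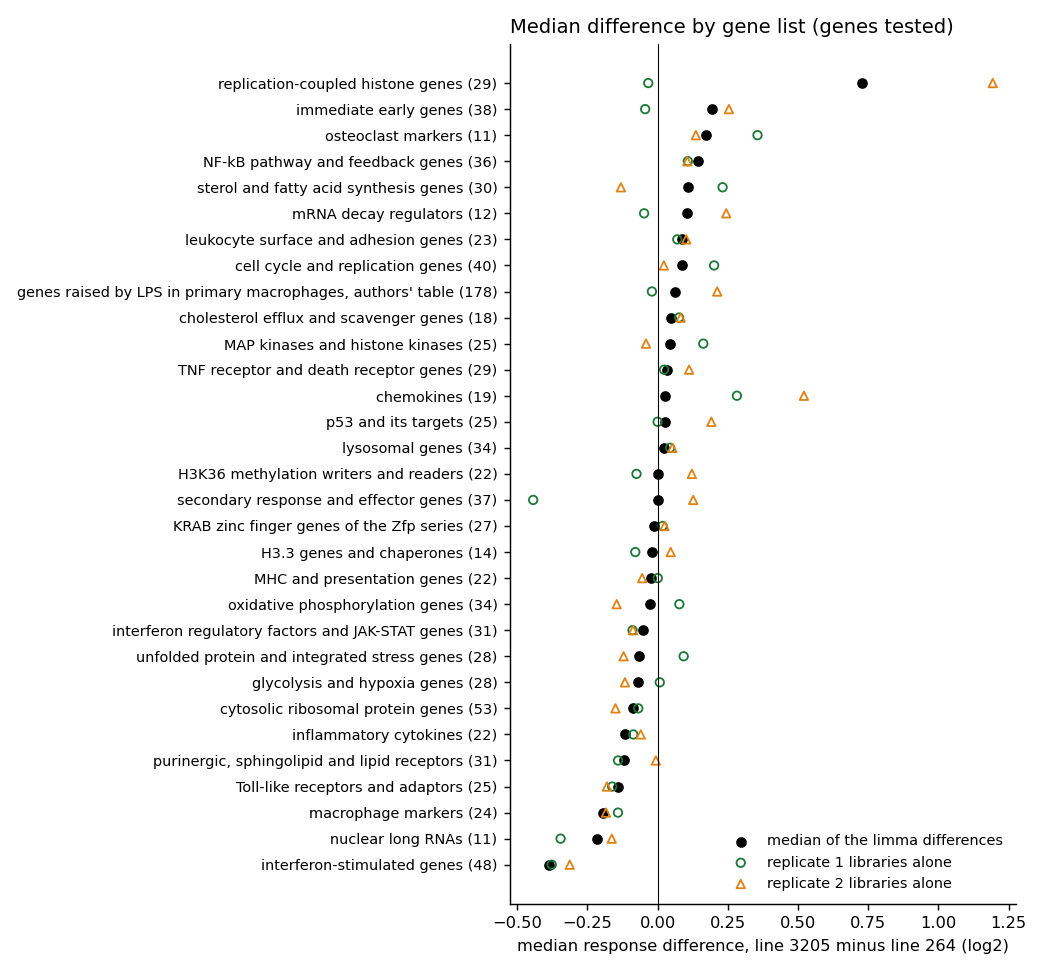
Median response difference (line 3205 minus line 264, log2) of each gene list with at least 10 tested members, from the limma fit (black) and from replicate 1 (green circles) or replicate 2 libraries (orange triangles) alone, with the number of genes tested in parentheses. The interferon-stimulated genes lie lowest, at -0.39, and the replication-coupled histone genes highest, at 0.73, where the 2 replicates are far apart.

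No gene qualified as a call, so the genes that lead the table by p are given as a description. They were chosen after their values were seen, as the 15 smallest p values of each direction among genes with a group mean of at least 50 normalized reads and the same sign in both replicates, predicted genes aside. The gap at 120 min is a part of the difference that chose these genes, so a called gap is not separate support. Over all genes, 1570 (9%) were called for that gap. The choice also favoured like signs and close values in the 2 replicates. Both limits hold for the leading genes described above as well. Positions are those of the whole gene in RefSeq on GRCm38.p6, the assembly of the mm10 build.

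Jag1, which encodes a ligand of Notch receptors, led on the higher side (chromosome 2, 137081451 to 137116520). In line 264 it stood at 225 and 272 normalized reads without LPS, 233 and 212 at 60 min and 71.7 and 281 at 120 min. Line 3205 held 47.9 and 66.9, then 62.2 and 103 and then 561 and 513, and wild type cells went from 333 and 269.8 to 1095 and 1588 at 120 min. Line 3205 was thus below line 264 without LPS and above it at 120 min in every library. The response was -0.79 ± 0.51 in line 264 and 3.22 ± 0.51 in line 3205 (adjusted p = 0.00606), and the difference 4.01 ± 0.72 (95% interval 2.41 to 5.62, limma adjusted p = 1). Its adjusted p was 1 by limma, 0.00301 by DESeq2 and 0.0158 by limma without replicate 2 of line 264 at 120 min, where it was 4.99. Over all settings it ranged from 0.00301 to 1. The 2 libraries of line 264 at 120 min were far apart.

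Notch1 and Dtx4 stood on the lower side of the same list. Notch1, a receptor of that pathway (chromosome 2, 26457902 to 26503822), went from 115 and 203 normalized reads to 288 and 369 in line 264 and from 116 and 81.3 to 67.7 and 67.4 in line 3205. It ended lower in line 3205, with a gap of -2.25 ± 0.34 (adjusted p = 0.00292), with a response difference of -1.61 ± 0.48. Dtx4, a Deltex ubiquitin ligase (chromosome 19, 12466329 to 12502179), rose from 2182 and 3624 to 5819 and 7234 in line 264 and stood at 4456 and 3999 without LPS and 3559 and 4183 at 120 min in line 3205, a difference of -1.34 ± 0.32. The pathway was not a fixed list, and its other genes were not examined.

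Several of the genes with positive differences rose in both lines, with the larger fold in line 3205. Rapgef2, an exchange factor for Rap GTPases (chromosome 3, 79062511 to 79286545), went from 1898 and 2473 normalized reads to 8673 and 9856 in line 264 and from 1187 and 1736 to 13133 and 16082 in line 3205. It was below line 264 without LPS and above it at 120 min in both libraries, and its difference was 1.25 ± 0.28, with 1.28 and 1.22 in the replicates. Slc11a2, the iron transporter DMT1 (chromosome 15, 100387898 to 100424209), started at overlapping levels and reached 3800.0 and 3099 in line 264 against 8892 and 7792 in line 3205. Its difference was 1.08 ± 0.25, and the gap at 120 min was called (adjusted p = 0.00162). Pik3r5, a regulatory subunit of PI3K gamma (chromosome 11, 68432125 to 68497849), reached 5041 and 4199 in line 264 against 12578 and 11093 in line 3205 and differed by 0.79 ± 0.20. Stk40, a kinase-like protein gene, started lower in line 3205, with a gap of -1.21 ± 0.11 (adjusted p = 0.000151), and differed by 0.63 ± 0.16. For Zfp811, a zinc finger gene, no folds are given, since it had 3 reads in line 264 and 0 in line 3205 without LPS. At 120 min it reached 38.3 and 29.3 normalized reads in line 264 against 63.2 and 115 in line 3205.

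Others had positive differences without a shared rise. Cttnbp2nl, a gene for a cortactin-binding protein relative (chromosome 3, 105001915 to 105053146), went from 3458 and 4151 normalized reads to 2731 and 2116 in line 264 and from 3252 and 3245 to 6217 and 4283 in line 3205. Neither response passed the test alone. The gap at 120 min, a part of the difference that chose the gene, was 1.1 ± 0.20 (adjusted p = 0.00789). The difference was 1.32 ± 0.28. Mtss1, an actin regulator (chromosome 15, 58941234 to 59083956), fell in both lines, from 2339 and 2175 to 716 and 737 in line 264 and from 3986 and 4154 to 2812 and 2108 in line 3205, less in the latter by 0.89 ± 0.22. Eepd1 fell in line 264, where it was scarce, from 34.6 and 21.4 to 9.82 and 8.56, and stood at 747 and 934 without LPS and 866 and 693 at 120 min in line 3205. Serpinb8, a protease inhibitor gene, was higher in line 3205 at both times and differed by 1.32 ± 0.36, and Ankrd28 differed by 0.70 ± 0.19. Gpr137b rose in line 3205, from 519 and 442 to 1034 and 794, and had a response of -0.08 ± 0.19 in line 264. It has a close pseudogene copy, so its counts are uncertain where reads could be split between them. Relb, Fas and Gpr183, described above, complete the 15.

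On the lower side, Themis2, a signalling scaffold of macrophages and B cells (chromosome 4, 132781843 to 132796364), led by p. It stood at 1391 and 1237 normalized reads without LPS and 3305 and 2230.4 at 120 min in line 264, and at 769.6 and 1076 without LPS and 291 and 502 at 120 min in line 3205. Both libraries of line 264 were higher with LPS and both of line 3205 lower, although neither response passed the test alone. The difference was -2.30 ± 0.53 (95% interval -3.48 to -1.12, limma adjusted p = 1), and the gap at 120 min was called (adjusted p = 0.00134).

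Malt1, the paracaspase that cleaves negative regulators of NF-kB, had equal levels without LPS, 1737 and 1709 normalized reads in line 264 against 1843 and 1738 in line 3205. At 60 min the levels were still alike, at 1930.0 and 1853 in line 264 against 1828 and 1694 in line 3205. At 120 min they had parted, at 8048 and 5493 in line 264 against 3485 and 1884 in line 3205, while wild type cells had 20439.8 and 15648. The difference was -1.43 ± 0.39 (95% interval -2.29 to -0.57), with -1.29 and -1.57 in the replicates. Levels of Malt1 thus met before LPS and not after, whereas those of Nfkbia were closer after LPS than before.

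Prdm1, which encodes the repressor Blimp-1 (chromosome 10, 44437174 to 44528558), had 1.82 and 4.28 normalized reads in line 264 against 182 and 557 in line 3205 without LPS, and 61.9 and 142 in line 264 against 313 and 546 in line 3205 at 120 min. It rose 24.6-fold in line 264 from 7 reads over both libraries, and its response in line 3205 was 0.37 ± 0.75. The difference was -4.25 ± 1.06. Bcl6b, a repressor related to Bcl6, had 5 and 2 reads without LPS and stood at 50.1 and 89.3 normalized reads in line 264 against 1.94 and 2.78 in line 3205 at 120 min. Zfhx4, a large homeobox gene, was close to absent in line 264, with 2 reads without LPS and 17 at 120 min, and stood between 2613 and 3171 normalized reads in line 3205 without LPS and 1583 and 2794 at 120 min. No fold is given for its response in line 264, and the lines were far apart at both times.

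Of the remaining lower genes, Gramd1a, a sterol transfer protein gene (chromosome 7, 31130127 to 31155935), went from 1636 and 1386 to 6347 and 4600.3 normalized reads in line 264 and from 1335 and 1188 to 2472 and 1810.4 in line 3205. Its difference was -1.09 ± 0.27, with -1.07 and -1.12 in the replicates. Ppp1r13b, which encodes the p53-binding protein ASPP1, rose from 419 and 393 to 1026 and 1349 in line 264 and stood at 529.9 and 397 without LPS and 621 and 428 at 120 min in line 3205, a difference of -1.36 ± 0.33. Zswim6 rose in line 264 to the level that line 3205 held throughout (-1.06 ± 0.26). Irf2bp2, a corepressor gene, differed by -0.81 ± 0.23, and Fam212a, which fell in both lines, by -1.2 ± 0.35. C5ar1 and Ptafr, described above, and Mmp9 also belong to this set by p.

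**Figure D5:**
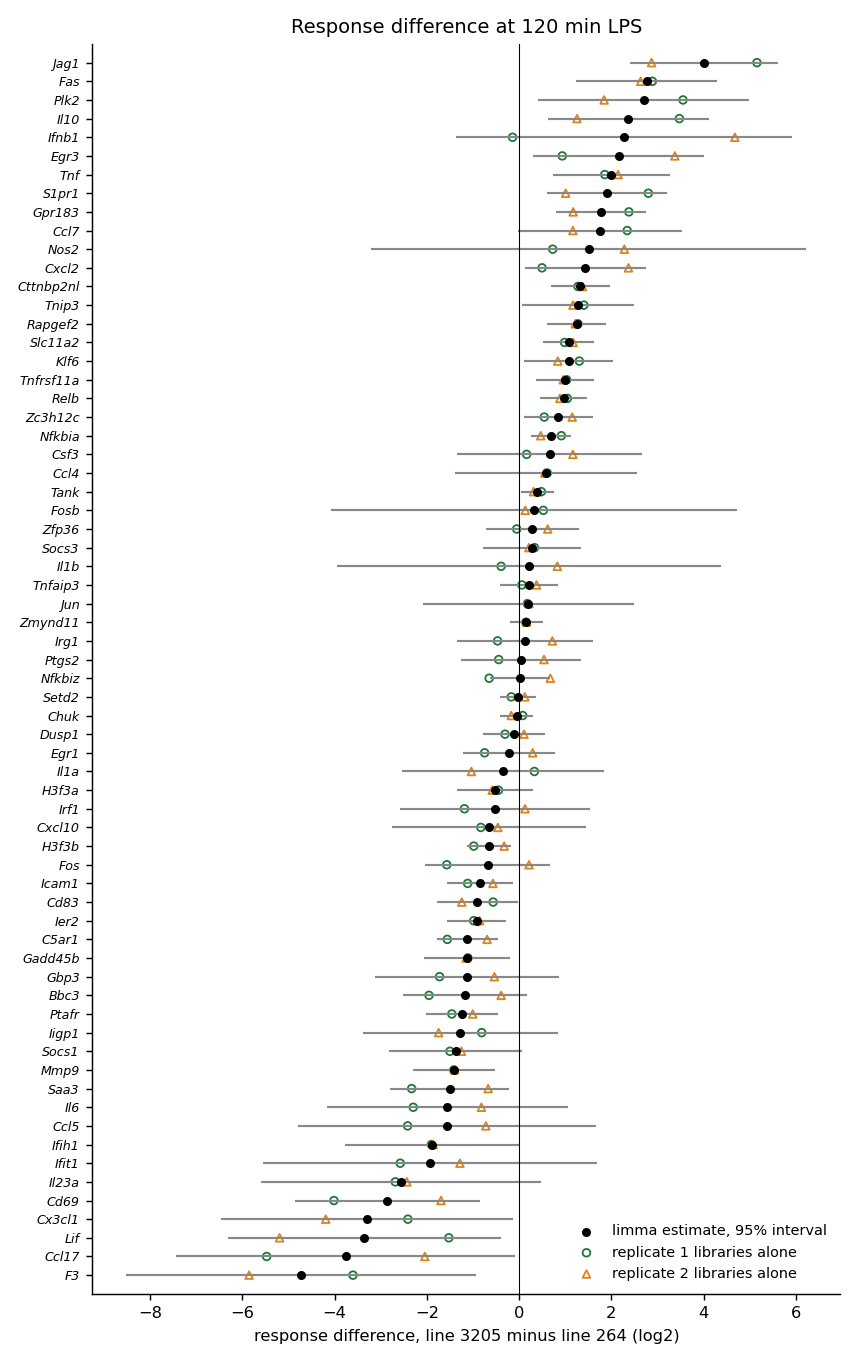
Response difference at 120 min of LPS (line 3205 minus line 264, log2) for 66 genes, with the limma estimate (black) and its 95% interval (grey line) and the values from replicate 1 (green circles) and replicate 2 libraries (orange triangles) alone. The intervals of Jag1, Fas and Tnf lie wholly above zero and those of Lif, Cd69 and F3 wholly below it before any adjustment for the 17450 genes tested. In line 3205, F3 was at or under the floor of 3 reads per group, and Fas and Cd69 had few reads without LPS.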

How the data were processed

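RNA-seq of RAW264.7 lines was taken from the table of the 120 min experiment, with 60 min levels read from the companion table for description only. The 60 min values were used as deposited, and whether they share 1 scale with the others was not tested. The deposited values are normalized read counts, a signal that is not raw reads, which the authors made with Trim Galore 0.5.0, STAR 2.4.2, featureCounts of Subread 1.4.6 and DESeq2 on mm10, per the submitters' processing notes. The deposited table of primary macrophages gives a log2 fold change by the authors, used only to choose a list. Each library's values were whole multiples of 1 read (100% within 0.1 read), so reads were recovered for edgeR 4.0.16 and DESeq2 1.42.0 as alternatives. Because the values are normalized, the main test was limma 3.58.1 in R 4.3.3 with an intensity trend on log2(value + 1), fitted to 12 libraries in 6 groups, for genes with a mean of at least 1, with Benjamini-Hochberg adjustment over 17450 genes and a call at adjusted p below 0.05. Fold changes are on this scale and understate those of low genes, and the fit had 6 residual degrees of freedom. Libraries held 26456023 to 51041425 recovered reads, and for genes with a group mean of at least 500 the median 95% interval reached 0.58 log2 units to each side.

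The labels number the libraries of each group as replicate 1 and 2. Same-numbered libraries deviated together from their group means, with correlations of 0.43 to 0.75 over the 6 pairs of compared groups and 0.36 to 0.75 over all 15 pairs, so the fit with the replicate number as a block was also made. Genes were named from a panel of 32 genes and as up to 4 members of each of 36 lists by smallest p, and not all of these are printed. A rule for calls named 0 genes. The 30 leading genes, Nfkb2 and Nr4a3 were chosen after values were seen. One gene counted among the receptor list is not reported here. The members and lists were chosen with earlier results of these data known. A group with 3 or fewer reads over both libraries gets no fold. No source used here states whether counting used strand.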

Additional observations from a re-analysis of the deposited data

How the results depend on the processing

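The count of called genes was 0 in each direction under limma and stayed so with the replicate block (lowest adjusted p 0.0713), which changed no call. It was 1 higher in line 3205 with DESeq2 (Jag1, adjusted p = 0.00301), 0 to 1 higher and 0 to 0 lower when single libraries were left out, where the 1 was Jag1 without line 264 at 120 min replicate 2 (adjusted p = 0.0158), and 1 lower with limma without trend (Gm53, adjusted p = 0.0477). The count at unadjusted p below 0.05 was 282, and it was 590 with no filter, 178 with a mean of at least 10, 584 with the replicate block, 598 with edgeR and the block, and 272 to 404 when single libraries were left out. The other settings gave 219 to 363. Of 1939 values recomputed for 97 named genes over 20 settings, 1873 kept their direction and 66, in 23 genes, did not. With other scalings or tools, Setd2 became 0.0277 (TMM), 0.0394 (edgeR) and 0.0383 (edgeR with block), and Chuk 0.0044, 0.0017 and 0.0048 in the same order and 0.0408 with quantile normalization. With edgeR, edgeR with block and DESeq2, Il10 became -0.47, -0.45 and -0.0136, Il1b -0.26, -0.12 and -0.26, and Egr1 0.0416, 0.0617 and 0.0273. Il6 became 0.0145 with edgeR and 0.26 with the block, Fosb -0.16 with edgeR, -0.19 with DESeq2 and -0.10 with a pseudocount of 5, Il1a 0.32 with a pseudocount of 5, and Ptgs2 -0.0099 with quantile normalization. Leaving out single libraries took these genes across zero: Ccl4 -0.40 to 1.57, Ccl5 -3.15 to 0.0121, Chuk -0.16 to 0.0616, Csf3 -0.0581 to 1.38, Cxcl10 -1.85 to 0.56, Dusp1 -0.34 to 0.13, Egr1 -0.59 to 0.13, Fosb -1.83 to 2.49, Ifnb1 -0.0018 to 4.54, Il1a -1.44 to 0.74, Il1b -1.46 to 1.89, Irf1 -1.79 to 0.73, Irg1 -0.43 to 0.69, Jun -0.78 to 1.17, Nfkbiz -0.26 to 0.29, Nos2 -0.61 to 3.62, Ptgs2 -0.54 to 0.64, Setd2 -0.18 to 0.13, Socs3 -0.0616 to 0.60, Tnfaip3 -0.0158 to 0.45 and Zfp36 -0.26 to 0.83. In 33 other genes leaving out a library moved the value by more than 1.5 times with its sign kept: Bbc3 -1.93 to -0.42, Ccl17 -5.72 to -1.8, Cd83 -1.26 to -0.55, Cebpa -1.35 to -0.65, Cx3cl1 -4.75 to -1.85, Cxcl2 0.75 to 2.12, Egr3 1.05 to 3.26, Fos -1.12 to -0.24, Gbp3 -2.14 to -0.12, H3f3a -0.77 to -0.27, Icam1 -1.15 to -0.54, Ifih1 -2.77 to -0.99, Ifit1 -3.85 to -0.0124, Iigp1 -2.02 to -0.54, Il10 1.52 to 3.21, Il23a -3.61 to -1.51, Il6 -2.69 to -0.43, Klf6 0.70 to 1.44, Lif -5.06 to -1.66, Map2k1 0.12 to 0.42, Nfkb2 0.40 to 0.89, Nr4a3 -4.1 to -1.29, Plk2 1.38 to 4.02, Ppp1r15a -1.5 to -0.36, S1pr1 1.14 to 2.67, Saa3 -2.2 to -0.81, Serpinb8 0.86 to 1.77, Socs1 -1.94 to -0.81, Tlr8 -2.42 to -0.85, Tnip3 0.71 to 1.86, Xbp1 -0.67 to -0.30, Zc3h12c 0.45 to 1.25 and Zmynd11 0.0673 to 0.24. Jag1 ranged from 3.03 to 4.99. Gm53, called lower with limma without trend, stayed at -2.0165 whichever library of line 264 was left out. The libraries within each group of line 264 thus held equal values for Gm53 and added no spread to its test. Of 720 list medians, 201 moved by more than the spread of the replicates, and the medians of 26 of the 36 lists changed sign without 1 library. The fits without a library had no replicate block, so replicate numbers were unbalanced in them and differences between replicate numbers entered the values. The cause of these changes was not tested. With a library left out, its partner was assumed to vary like the other groups. With 2 libraries a group, the median 95% interval reached 2.25 log2 units to each side for genes under 50 normalized reads and 1.15 for those from 50 to 500.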
